A study of Mus musculus with 4 samples.

Results

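The genes described here are 9 heat shock and chaperonin genes: Hspa8, Hsp90aa1, Hsp90ab1, Hsph1, Hspa4 and Dnaja1, whose proteins work mainly in the cytosol, and Hspd1, Hspe1 and Hspa9, whose proteins work in mitochondria. They were listed by name, though with earlier results of these data known, and all 9 have a row among the 17391 genes counted. Kidneys of male mice, 12 weeks old, gave the Gli1-positive cells, which were grown as primary cultures. In the kidney, Gli1 is a marker of mesenchymal cells able to become matrix-producing myofibroblasts. All cultures spent 2 h without serum. The control, labelled 0 h, was then harvested without TGF-β, and the other cultures were given TGF-β at 1 ng/ml, a signal for myofibroblast formation, over 6, 12 or 24 h. Single-cell libraries were made by Drop-seq, in which each cell shares a droplet with a barcoded bead. Each time point had 1 library and the later times had no untreated culture, so every difference below is between 2 libraries, has no replicate check and cannot be told apart from time in culture. Intervals are 95% intervals for counting error only, and no test between time points was possible.

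Chaperones bind unfolded or partly folded proteins and use cycles of ATP to let them fold. In the cytosol, Hsp70 proteins receive substrates from J-domain proteins, are reset by nucleotide exchange factors, and pass many clients, among them kinases and steroid receptors, to Hsp90. In mitochondria, the Hsp70 protein mortalin helps pull imported chains inward and the Hsp60 and Hsp10 proteins form a closed chamber in which they fold. Many of these genes are expressed in unstressed cells, and heat shock factor 1 raises several of them when unfolded proteins accumulate, by binding repeated heat shock elements in their promoters.

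The library labelled 0 h goes against its label, and the other libraries differ in depth. The libraries held 192, 658, 1120 and 1328 barcodes at 0, 6, 12 and 24 h, and 106826, 778793, 5687966 and 6166324 counts. Barcodes with 1000 or more counts numbered 13, 80, 865 and 933, and no barcode sequence was found in more than 1 library. At 6 h, 25 barcodes with 8000 or more counts held 428006 of the 778793 counts. Levels over all barcodes at 6 h thus rest mostly on these 25, and the intervals do not cover differences between barcodes. Levels are given as CPM, a gene's counts over all barcodes scaled to one library total for every library, so that fewer cells of a type and less RNA per cell cannot be told apart. The 10 proximal tubule markers, all with a count at 0 h and 3 to 6 of them with one later, summed to 14210 CPM at 0 h and to between 4.40 and 5.51 CPM in the treated libraries, whereas the 8 mesenchymal markers counted summed to 46.8 CPM at 0 h, with Col1a1, Col3a1, Pdgfrb, Dcn and Postn at 0, and to 1255, 3384 and 4214 CPM at 6, 12 and 24 h. At 6 h Dcn and Postn were also at 0. The nuclear RNA Malat1 took 32.2% of the counts at 0 h and ribosomal protein genes took 0.374%, against 0.947% to 1.24% and 10.3% to 14.5% in the treated libraries. The 28 genes of the G2 and M phases of the cell cycle summed to 3024, 928 and 190 CPM at 6, 12 and 24 h. Of those at a mean of 20 CPM or more, 23 of 23 were at least 1.5-fold lower at 24 h against 6 h, beside 8.95% of 6238 genes at that mean. Results within barcodes split by these genes are given below. Because of the 0 h content, the 3 treated libraries are compared first and the library labelled 0 h is described separately.

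Summed over the 9 genes and all barcodes, the level was highest at 6 h and lowest at 24 h among the treated libraries. The sum stood at 14159 CPM in the 6 h library (13896 to 14426), 13179 in the 12 h library (13085 to 13274) and 12058 in the 24 h library (11972 to 12145). As shares of all counts these are 1.42%, 1.32% and 1.21%. These differences are small, and the step from 12 h to 24 h depends on the scaling: the log2 ratio of the sum was -0.13 on library totals and 0.0023 with DESeq2 size factors. The order of 6 h and 12 h depended on the barcodes used. With barcodes thinned (cut at random) to 1000 counts each, the mean sum was 15.3, 13.5 and 12.3 counts at 6, 12 and 24 h. Thinned to 3000 counts, where fewer barcodes remain, it was 39.4, 39.7 and 36.4. Below the sum, the genes followed different courses. Over all barcodes, Hspa8 alone of the 9 had its highest treated level at 24 h (Hspe1 did too where barcodes had 1000 or more counts, with 676 CPM against 656 at 6 h), Hsp90aa1 and Hspd1 were high at 6 h alone, Hspe1 and Dnaja1 were low at 12 h alone, Hspa4 and Hspa9 were lowest at 24 h, and Hsp90ab1 and Hsph1 differed least.

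**Figure D1:**
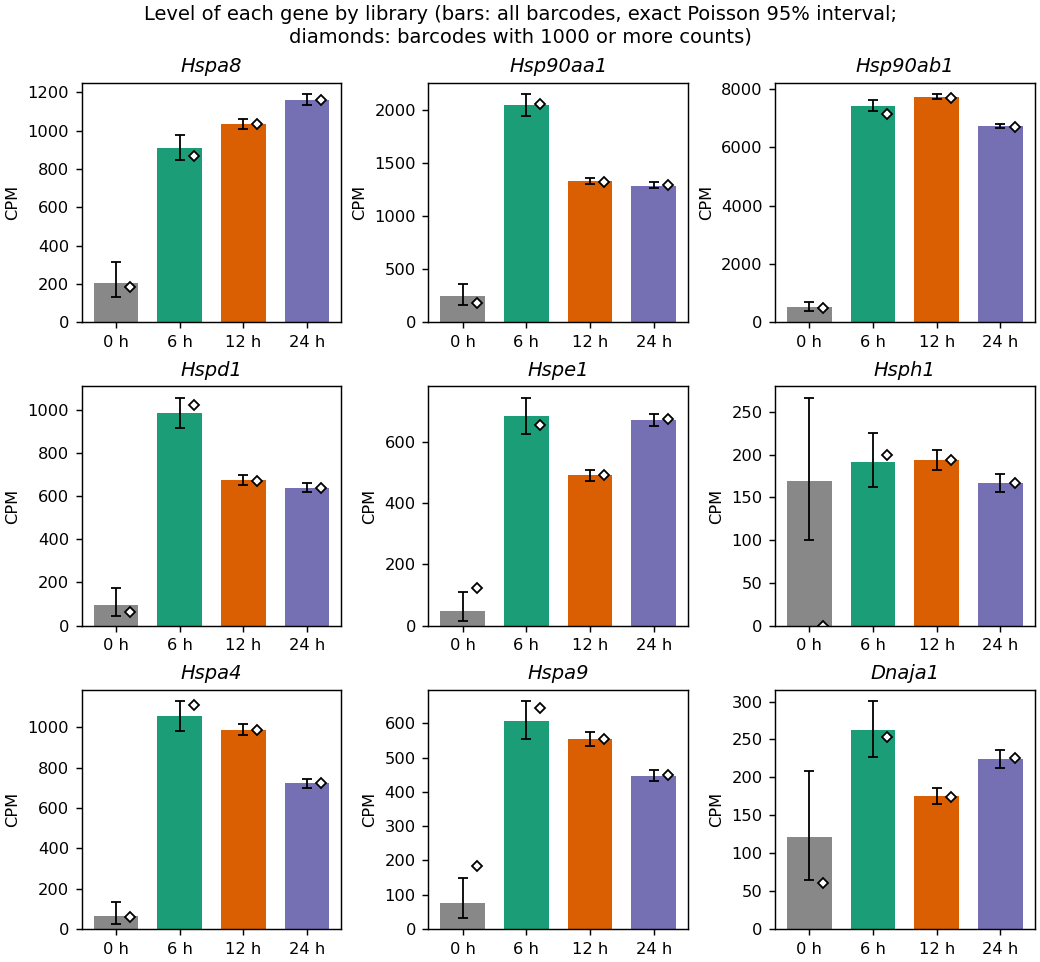
Level of each of the 9 genes in CPM (vertical axis, own scale for each gene) in the libraries labelled 0 h, 6 h, 12 h and 24 h. Bars are all barcodes with the exact Poisson 95% interval, and diamonds are barcodes with 1000 or more counts; Hsp90aa1 has 2045 CPM in the 6 h library and 1331 and 1289 CPM in the later ones, while Hspa8 has 910 CPM in the 6 h and 1162 CPM in the 24 h library.

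A gene was called different when its log2 ratio of CPM plus a pseudocount of 10 reached 1.5-fold, over the genes with 100 CPM or more in at least one of the libraries compared. At 12 h against 6 h, 1 of the 9 genes, Hsp90aa1, was at least 1.5-fold lower and none was higher, beside 10.3% of 2256 genes lower and 16.0% higher. At 24 h against 12 h, none of the 9 passed in either direction, beside 3.68% of 2146 genes lower and 4.38% higher. At 24 h against 6 h, Hsp90aa1 and Hspd1 were at least 1.5-fold lower and none was higher, beside 11.6% of 2166 genes lower and 14.0% higher. Since 1 of 9 genes is already 11.1%, these counts are near the background and are not a result about the group. The median log2 ratio of the 9 was -0.13, -0.075 and -0.21 in these comparisons, beside 0.11, -0.11 and -0.00037 over all genes at the same floor. Relative to the median of all genes, the median of the 9 was thus 0.24 lower at 12 h against 6 h and 0.21 lower at 24 h against 6 h (log2), and 0.032 higher at 24 h against 12 h. The quartiles of all genes were -0.22 and 0.43 at 12 h against 6 h, -0.26 and 0.092 at 24 h against 12 h, and -0.30 and 0.33 at 24 h against 6 h. Each median of the 9 lay between them.

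The scaling of the libraries bears on small steps. With TMM factors, from edgeR, the median of all genes shifted by -0.13 at 12 h against 6 h and by 0.13 at 24 h against 12 h, and with DESeq2 size factors by -0.19 and 0.14. With TMM factors the calls over all genes at 12 h against 6 h became 11.4% higher and 14.2% lower, and at 24 h against 12 h 7.19% higher and 1.90% lower. With DESeq2 size factors they became 9.68% higher and 16.2% lower, and 7.21% higher and 1.92% lower. Among the 9 genes, Hspd1, Hspe1 and Dnaja1 then passed the limit downward beside Hsp90aa1 at 12 h against 6 h under both scalings, 4 of 9, and still none passed upward. The comparison of 24 h with 6 h shifted by 0.0055 with TMM and by -0.044 with DESeq2 size factors. Ratios between 2 genes of one library, used below, do not depend on the scaling.

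**Figure D2:**
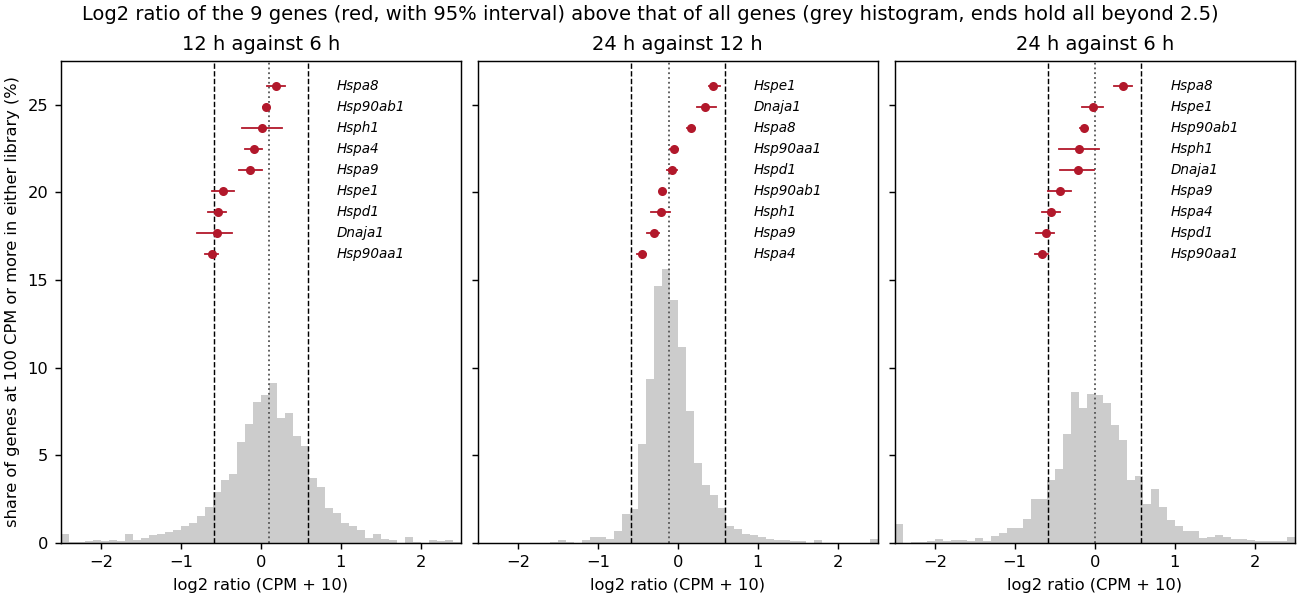
Log2 ratio of CPM plus 10 of each gene (red points; lines are the 95% interval of the CPM ratio, counting error only) for 3 comparisons, over a grey histogram of the genes with 100 CPM or more in one or both libraries (vertical axis, share of genes in percent). Dashed lines mark 1.5-fold and dotted lines the median of all genes; Hsp90aa1 lies past the lower dashed line at 12 h and 24 h against 6 h, and no gene passes a line at 24 h against 12 h.

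The cytosolic Hsp90 genes differed in their course between 6 h and 12 h. Hsp90aa1, which encodes the more stress-responsive Hsp90α, lies at chr12:110690605-110702728 on the minus strand (GENCODE M21, GRCm38). Its level was 2045 CPM in the 6 h library (1946 to 2148), 1331 in the 12 h library (1301 to 1361) and 1289 in the 24 h library (1261 to 1318). The 6 h library stood above the other treated libraries, whose levels lay close together. The level at 12 h was 1.54-fold lower than at 6 h (1.46 to 1.62), and at 24 h it was 1.59-fold lower (1.502 to 1.67). Hsp90ab1, which encodes the constitutive Hsp90β, lies at chr17:45567775-45573271 on the minus strand. In the same order its level was 7419 CPM (7229 to 7613), 7735 (7663 to 7808) and 6734 (6669 to 6799), highest at 12 h and lowest at 24 h. The ratio of 12 h to 6 h was 1.04 (1.01 to 1.07), and its direction turned with TMM (log2 -0.059) and with DESeq2 size factors (-0.11), whereas the 24 h level was lower than at 12 h by a ratio of 0.871 (0.859 to 0.882).

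Counted against each other, Hsp90ab1 had 3.63 counts per count of Hsp90aa1 at 6 h (3.43 to 3.84), 5.81 at 12 h (5.67 to 5.96) and 5.22 at 24 h (5.10 to 5.35). This ratio was 1.60-fold higher at 12 h than at 6 h (1.51 to 1.70), and its 24 h value was 0.899 of that at 12 h (0.868 to 0.930). In barcodes with 1000 or more counts the first of these was 1.68-fold (1.56 to 1.80). The 6 h library differs from the others in depth, so the levels were also taken within 5 ranges of counts per barcode. Hsp90aa1 was lower at 12 h than at 6 h in 5 of 5 ranges, from 1965 against 1519 CPM in barcodes under 500 counts to 1974 against 1332 CPM in barcodes with 8000 or more.

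In the cytosolic Hsp70 system, Hspa8 encodes the constitutive Hsc70, which folds new chains and uncoats clathrin vesicles. Its gene lies at chr9:40800984-40810087 on the plus strand. The level was 910 CPM in the 6 h library (845 to 980), 1036 in the 12 h library (1010 to 1063) and 1162 in the 24 h library (1135 to 1189). Over all barcodes each library was above the one before, with intervals that do not overlap. Within ranges of depth, Hspa8 was higher at 12 h than at 6 h in 3 of 5 and lower in 2, and higher at 24 h than at 6 h in 5 of 5. The 24 h level was 1.28-fold that at 6 h (1.18 to 1.38). The step from 6 h to 12 h, 1.14-fold (1.05 to 1.23; log2 0.19), was 0.014 on the log2 scale with DESeq2 size factors, while the log2 ratio of 24 h to 6 h was 0.31 there.

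Hspa4 encodes Apg-2, an Hsp110-type nucleotide exchange factor that resets Hsp70. Its gene lies at chr11:53259814-53300457 on the minus strand. The level was 1054 CPM in the 6 h library (983 to 1129), 988 in the 12 h library (963 to 1015) and 721 in the 24 h library (700 to 743). The 24 h library was the low one: 1.37-fold below 12 h (1.32 to 1.43) and 1.46-fold below 6 h (1.36 to 1.58). In barcodes with 1000 or more counts the latter was 1.54-fold (1.41 to 1.67), past the limit of 1.5-fold. Hspa4 was lower at 24 h than at 12 h in 5 of 5 ranges of depth, while its direction between 6 h and 12 h depended on the setting. It was 1.07-fold lower at 12 h over all barcodes (0.990 to 1.15) and 1.12-fold lower in barcodes with 1000 or more counts (1.03 to 1.22), but higher in 4 of 5 ranges of depth and with equal weight per barcode (log2 0.021). At 6 h, 1 barcode held 64 of the 821 counts of Hspa4. Without the barcode with most counts of Hspa4 in each library, the log2 ratio of 12 h to 6 h was -0.034 instead of -0.092. Against Hspa4, counts of Hspa8 numbered 0.864 (0.780 to 0.956) at 6 h, 1.05 (1.01 to 1.09) at 12 h and 1.61 (1.55 to 1.67) at 24 h, which is 1.87-fold higher at 24 h than at 6 h (1.68 to 2.08). The ratio of Hspa8 to Hsp90aa1 was 2.02-fold higher at 24 h than at 6 h (1.84 to 2.22).

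Hsph1 encodes Hsp105, the stress-inducible relative of Apg-2. Its gene lies at chr5:149614287-149636376 on the minus strand. At 6, 12 and 24 h the level was 191 CPM (162 to 225), 193 (182 to 205) and 166 (156 to 177). Its intervals at 6 h and 24 h overlapped, and the 24 h level was 1.16-fold below that at 12 h (1.07 to 1.27). Dnaja1 encodes a J-domain protein that delivers clients to Hsp70. Its gene lies at chr4:40722150-40737149 on the plus strand. At 6, 12 and 24 h the level was 262 CPM (227 to 300.5), 175 (164 to 186) and 225 (213 to 237). The 12 h library was the low one: Dnaja1 was 1.496-fold lower than at 6 h (1.28 to 1.74), just short of the limit, and at 24 h it was 1.28-fold higher than at 12 h (1.18 to 1.39). Dnaja1 shares 608 bases with Smu1 on the opposite strand, and without a stated strand setting reads of the overlap cannot be assigned with certainty.

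The mitochondrial genes include a pair that shares one promoter region. Hspd1, which encodes Hsp60, lies at chr1:55077835-55088243 on the minus strand, and Hspe1, which encodes its lid Hsp10, lies at chr1:55088132-55091307 on the plus strand (GENCODE M21, GRCm38). They are read away from each other and their 5′ ends overlap by 112 bases. RefSeq promoter windows (GRCm38.p6) were found for 5 of the 9 genes, Hspd1, Hspe1, Hsph1, Hspa4 and Dnaja1, and not for Hspa8, Hsp90aa1, Hsp90ab1 or Hspa9. The 250 bases before each start were searched for the letters of heat shock elements, which are repeats of GAA and its reverse complement spaced by 2 bases: GAANNTTC and TTCNNGAA for 2 units, each its own reverse complement, and GAANNTTCNNGAA or TTCNNGAANNTTC for 3, so that a 3-unit match always holds 2-unit matches. The 3-unit letters occurred in 0.466% of 32851 promoter windows, and either 2-unit form in 12.8%. The stretches of 30 bases below are shown because they hold every such match found for these genes, with the matched bases in capitals.
Hspe1, chr1:55088053-55088082, plus strand: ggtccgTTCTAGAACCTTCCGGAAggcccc
Hsph1, chr5:149636351-149636380, minus strand: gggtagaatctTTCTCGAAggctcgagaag
Dnaja1, chr4:40722333-40722362, plus strand: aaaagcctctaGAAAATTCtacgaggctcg
The first run holds 4 units in 18 bases, 2 overlapping matches of the 3-unit letters, and lies 89 to 72 bases before the start of Hspe1 and 144 to 127 bases before the nearer of 2 RefSeq starts of Hspd1, whose window holds the same bases on the other strand. Transcripts from the other start of Hspd1 run across this stretch. Hsph1 has 1 match of 2 units, 33 to 26 bases before the upstream of its 2 RefSeq starts and 54 to 47 bases before the downstream one. Dnaja1 has 1 match, 124 to 117 bases before the first of 3 starts, and Hspa4 has none in this window. Of the 250 bases, all 250 lie in GENCODE exons for the Hspe1 start and for the nearer Hspd1 start. For that Dnaja1 start 218 do, and 40 and 61 for the upstream and downstream starts of Hsph1. The first run lies inside the GENCODE span of Hspd1 and before that of Hspe1. The matches of Hsph1 and Dnaja1 lie inside the GENCODE spans of these genes, not before them. These are matches of letters in annotated windows, and binding was not measured.

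Although they share that region, Hspd1 and Hspe1 did not keep one ratio. For Hspd1 the level was 985 CPM in the 6 h library (916 to 1057), 675 in the 12 h library (654 to 697) and 641 in the 24 h library (621 to 661). The 6 h library was the high one, 1.46-fold above 12 h (1.35 to 1.58) and 1.54-fold above 24 h (1.42 to 1.66). In barcodes with 1000 or more counts the former was 1.53-fold, past the limit. For Hspe1, in the same order, it was 684 CPM (628 to 745), 491 (473 to 510) and 673 (652 to 693). Its 12 h library was the low one, 1.39-fold below 6 h (1.27 to 1.53), and the 24 h level was 1.37-fold above 12 h (1.31 to 1.44) and could not be told from that at 6 h (ratio 0.983, 0.898 to 1.08).

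Counts of Hspe1 per count of Hspd1 were 0.695 (0.621 to 0.777) at 6 h, 0.727 (0.692 to 0.764) at 12 h and 1.05 (1.01 to 1.10) at 24 h. Between 6 h and 12 h this ratio differed 1.05-fold (0.928 to 1.18), within counting error, and between 12 h and 24 h it differed 1.44-fold (1.35 to 1.54). Hspe1 was higher at 24 h than at 12 h in 5 of 5 ranges of depth. Hspd1 was lower in 5 of 5 (log2 -0.075 over all barcodes), a direction that turned with TMM (0.047) and DESeq2 size factors (0.054). Hspd1 was lower at 12 h than at 6 h in 4 of 5, the exception being barcodes under 500 counts, with 818 CPM at 12 h against 785 CPM at 6 h. Hspa9, which encodes mortalin, lies on chromosome 18. At 6, 12 and 24 h its level was 607 CPM (554 to 665), 554 (535 to 573) and 448 (431 to 465). Its 24 h library was the low one, 1.24-fold below 12 h (1.17 to 1.30) and 1.36-fold below 6 h (1.23 to 1.496).

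**Figure D3:**
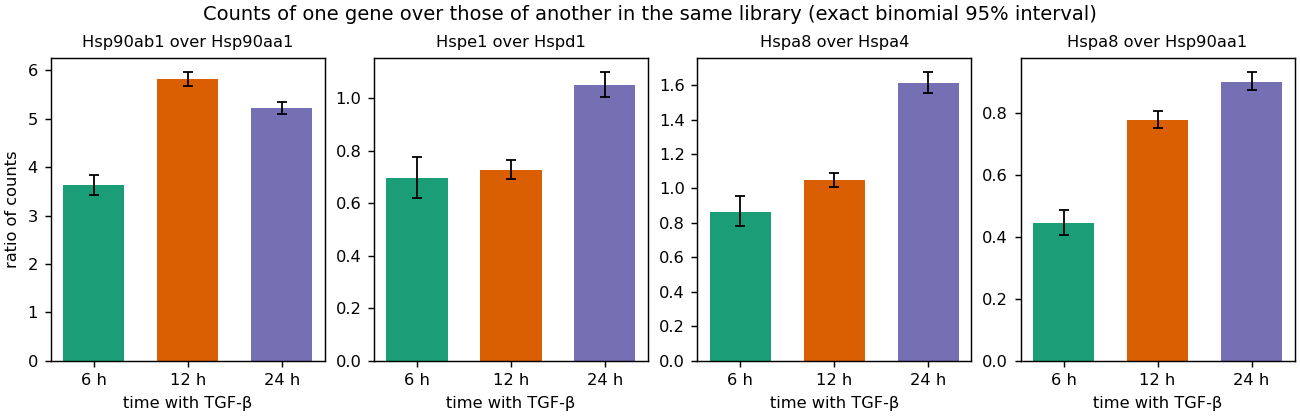
Counts of one gene divided by counts of another in the same library (vertical axis, own scale for each pair) at 6 h, 12 h and 24 h, with the exact binomial 95% interval. The ratio of Hsp90ab1 to Hsp90aa1 is 3.63 at 6 h and 5.81 at 12 h, and that of Hspe1 to Hspd1 is 0.727 at 12 h and 1.05 at 24 h.

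Several of these genes share sequence with other annotated genes, none of which has a row in the table. Of the 51-base words in the last 600 bases of their transcripts, where Drop-seq reads fall, 70.6% were shared with 11 other genes for Hspa8, 46.7% with 5 for Hspe1, 34.5% with 3 for Dnaja1, 33.4% with 6 for Hspd1, 25.3% with 2 for Hsp90aa1 and 3.204% with 3 for Hsp90ab1. Hsph1, Hspa4 and Hspa9 shared none. The treatment of reads that match several places is not stated, so levels of the first 6 are uncertain, and whether this differed between libraries was not tested.

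Against the library labelled 0 h, 8 of the 9 genes were at least 1.5-fold higher at 6 h and 24 h and 7 of the 9 at 12 h, and none was lower. Most of the genes at 100 CPM or more also passed: of 2832 genes 53.0% were higher and 37.4% lower in the 6 h library, of 2953 genes 55.5% and 34.3% in the 12 h library, and of 2875 genes 53.2% and 37.3% in the 24 h library. The levels at 0 h rest on few counts. They were 206 CPM (129 to 312) from 22 counts for Hspa8, 243 CPM (159 to 357) from 26 for Hsp90aa1, 524 CPM (396 to 681) from 56 for Hsp90ab1 and 168 CPM (99.9 to 266) from 18 for Hsph1. They were 122 CPM (64.8 to 208) from 13 counts for Dnaja1, 93.6 CPM (44.9 to 172) from 10 for Hspd1, 74.9 CPM (32.3 to 148) from 8 for Hspa9, 65.5 CPM (26.3 to 135) from 7 for Hspa4 and 46.8 CPM (15.2 to 109) from 5 for Hspe1.

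The size of the gap to 0 h differed widely among the genes. Hspa4 was 16.1-fold (7.77 to 40.1), Hspe1 14.6-fold (6.23 to 45.2) and Hsp90ab1 14.2-fold (10.9 to 18.8) above 0 h at 6 h. Hspd1 was 10.5-fold (5.69 to 22.0), Hsp90aa1 8.40-fold (5.71 to 12.9), Hspa9 8.11-fold (4.08 to 18.9) and Hspa8 4.42-fold (2.90 to 7.10) above. Dnaja1 was 2.15-fold above (1.23 to 4.11), and at 12 h its ratio of 1.44 (0.838 to 2.71) could not be told from 1. Hsph1 could not be told from its 0 h level in any treated library, with ratios of 1.14 (0.694 to 1.97), 1.146 (0.721 to 1.94) and 0.987 (0.621 to 1.67). At 0 h there were 2.57 counts of Hsph1 per count of Hspa4 (1.02 to 7.28), against 0.181 to 0.230 in the treated libraries. The tubule markers and Malat1 move with this comparison, and their part in it was not tested. The 13 barcodes with 1000 or more counts at 0 h held 0 counts of Hsph1 and 8 of Hsp90ab1, too few for a comparison of their own.

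Cell-cycle genes were highest in the 6 h library, so barcodes with 1000 or more counts were split by the G2 and M list. After thinning to 1000 counts, barcodes with 2 or more counts of the list numbered 29 of 80 at 6 h, 107 of 865 at 12 h and 15 of 933 at 24 h. The split is a range of a score, not a cell type: 17, 105 and 92 barcodes had exactly 1 such count and 6, 18 and 6 exactly 2. Hsp90aa1 was higher in the barcodes with 2 or more in every treated library, by 1.27-fold (1.13 to 1.43), 1.30-fold (1.22 to 1.39) and 1.22-fold (1.03 to 1.44) at 6, 12 and 24 h. Hsph1 had ratios of 1.26 (0.853 to 1.85), 1.53 (1.29 to 1.80) and 1.34 (0.823 to 2.05) between these and the remaining barcodes. Hspa4 was higher in them at 6 h (1.26, 1.07 to 1.48) and 12 h (1.13, 1.04 to 1.22), as was Hspd1 (1.19, 1.004 to 1.40, and 1.12, 1.02 to 1.24), and Hspa9 at 12 h (1.20, 1.08 to 1.34). At 24 h the intervals of these 3 genes held 1, and Hspe1 had ratios of 0.935 (0.753 to 1.16), 0.937 (0.826 to 1.06) and 0.809 (0.603 to 1.06).

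Within the remaining barcodes Hsp90aa1 was 1.46-fold lower at 12 h than at 6 h (1.34 to 1.58), Hspd1 1.44-fold lower (1.29 to 1.61) and Dnaja1 1.44-fold lower (1.14 to 1.79). Hspe1 was 1.37-fold higher at 24 h than at 12 h (1.30 to 1.44) and Hspa4 1.35-fold lower (1.29 to 1.41). At 24 h against 6 h, Hsp90aa1 was 1.45-fold lower there (1.33 to 1.57) and Hspd1 1.496-fold lower (1.33 to 1.67). The calls of Hsp90aa1 and Hspd1 at 1.5-fold were thus not reached in the remaining barcodes, though the intervals stayed clear of 1. Within the barcodes with 2 or more counts, Hsp90aa1 was 1.42-fold lower at 12 h than at 6 h (1.28 to 1.58), short of the limit, and Hspd1 1.52-fold lower (1.30 to 1.78). At 24 h against 6 h, Hspd1 was 1.66-fold lower in these barcodes (1.26 to 2.21) and Hsp90aa1 1.499-fold (1.25 to 1.81), just short. Hspa4 was 1.63-fold lower (1.25 to 2.13) and Hspa9 1.60-fold (1.14 to 2.31), against 1.40-fold and 1.35-fold in the remaining barcodes. Hspa8, 1.37-fold higher at 24 h than at 6 h in the remaining barcodes (1.22 to 1.54), had a ratio of 1.05 in the barcodes with 2 or more counts (0.811 to 1.35). The 24 h library held only 15 of the latter.

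Across single barcodes, the correlations among the 9 genes were higher at 6 h than later, as were those of all gene pairs. Over the 42 barcodes with 3000 or more counts at 6 h, the median Pearson correlation of the 36 pairs was 0.22, and 11 pairs (30.6%) were at 0.3 or more, beside 8.06% of all gene pairs at the same level. The highest was 0.66, between Hsp90aa1 and Hsp90ab1, followed by 0.60 between Hspd1 and Hspe1 and 0.58 between Hspd1 and Hspa9. Hspa8 had lower values, from -0.29 with Dnaja1 to 0.27 with Hspa9. At 12 h, over 637 barcodes, and at 24 h, over 701, the median was 0.035 and 0.040 and no pair reached 0.3. Of all gene pairs, only 0.0078% and 0.011% reached 0.3 there, so the absence of such pairs is not a result about the 9. The median of all gene pairs was 0.040, 0.014 and 0.014 at 6, 12 and 24 h.

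These values are descriptions: the barcodes share a library and differ in depth, and cells of one library are not replicates. After thinning every barcode to 3000 counts, the 6 h median was 0.047 with 2 pairs at 0.3 or more, beside 3.15% of all gene pairs, and the medians at 12 h and 24 h were 0.022 and 0.031. The Hsp90 pair was then at 0.52, and Hspd1 with Hspe1 at 0.059. With 33 barcodes of 5000 or more counts the 6 h median was 0.087. The summed counts of the 9 genes in barcodes thinned to 3000 ran from 11 to 73 at 6 h (median 39), from 17 to 83 at 12 h (median 40) and from 19 to 63 at 24 h (median 36). Their variance was 3.34, 1.84 and 1.59 times the mean, so the sum was most uneven at 6 h, over 42 barcodes. For Hsp90ab1 alone the values were 2.99, 1.74 and 1.73. Taken singly, Hspd1, Hspe1, Hspa4 and Hspa9 were not most uneven at 6 h, with 0.970, 1.15 and 1.17 for Hspd1. Genes outside the 9 were not compared in this way.

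**Figure D4:**
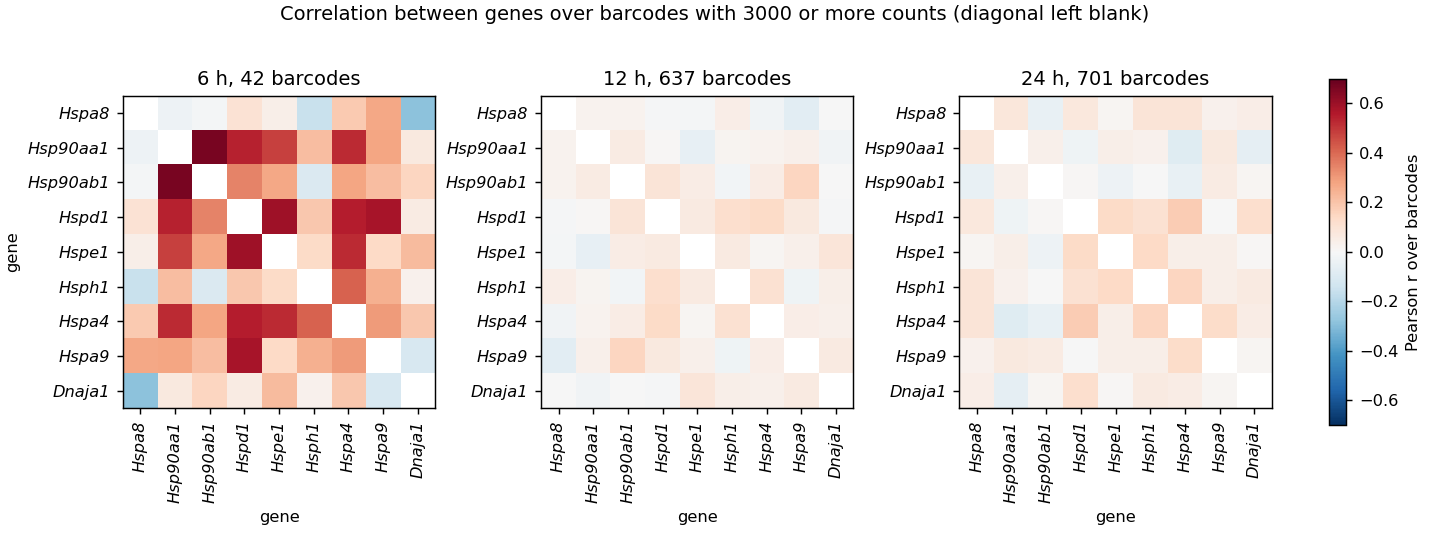
Pearson correlation between the 9 genes over barcodes with 3000 or more counts at 6 h (42 barcodes), 12 h (637) and 24 h (701), with red for positive and blue for negative values. The 6 h panel holds 11 pairs at 0.3 or more (30.6%, beside 8.06% of all gene pairs), led by Hsp90aa1 with Hsp90ab1 at 0.66. The 12 h and 24 h panels hold none, beside 0.0078% and 0.011% of all gene pairs.

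The heat-inducible Hsp70 genes were close to 0 in all 4 libraries. Hspa1a was at 5.14, 2.64 and 1.62 CPM and Hspa1b at 1.28, 2.29 and 5.19 CPM at 6, 12 and 24 h, and neither had a count at 0 h, where 3 counts would be 28.1 CPM. Heat shock factor 1 (Hsf1) was at 14.1, 11.3 and 10.9 CPM and Hsf2 at 21.8, 20.4 and 21.1 CPM. Dnajb1, an inducible partner of Hsp70, was at 37.2, 66.1 and 54.3 CPM, and the nucleotide exchange factor Bag3 at 36.0, 46.8 and 30.8 CPM. Of these 6 genes, Hspa1a, Hsf1 and Hsf2 had their highest treated value at 6 h, from 4, 11 and 17 counts.

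Other chaperone lists were compared at 24 h against 6 h, over genes with a mean of 20 CPM or more, where 13.5% of 6238 genes passed the limit upward and 8.95% downward, with a median log2 ratio of 0.038. The cytosolic chaperonin TRiC, which folds actin and tubulin, was near the median of all genes: none of its 8 subunits passed in either direction and their median was -0.026, the extreme being Cct6a with a log2 ratio of -0.47, from 529 and 378 CPM. Of 5 prefoldin genes, which hand chains to TRiC, 1 was higher, Pfdn5, with 289 CPM at 6 h and 502 CPM at 24 h, and the median was -0.014. Of 10 mitochondrial chaperones and proteases none passed, with a median of 0.050, beside -0.43 for the 3 mitochondrial genes of the 9.

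Lists of partners of Hsp70 and Hsp90 held genes in both directions. Over all barcodes, the log2 ratio was below 0 in 12 of 16 J-domain genes and above 0 in 4. It was below 0 in 10 of 15 Hsp90 cochaperones and above 0 in 5, and below 0 in 7 of 11 Hsp70 cofactors and above 0 in 4. Of all genes, 53.7% were above 0. Of the 16 J-domain genes, 4 (25%, beside 8.95% of all genes) were at least 1.5-fold lower and none higher, with a median of -0.22. The largest difference was in Dnajc9, a histone chaperone, which was at 186, 106 and 82.2 CPM at 6, 12 and 24 h and 2.26-fold lower at 24 h than at 6 h (1.87 to 2.73). Dnajc2, a ribosome-bound cochaperone, had 582 CPM at 6 h and 354 CPM at 24 h, and Dnajc21, a factor of ribosome assembly, 123 and 67.1 CPM. Of 15 Hsp90 cochaperones, 2 (13.3%, beside 8.95% of all genes) were lower and none higher over all barcodes, with a median of -0.090. Tomm70a, the mitochondrial import receptor that docks Hsp90, had 302 CPM at 6 h and 176 CPM at 24 h (1.71-fold lower, 1.48 to 1.97). Ptges3, which encodes the Hsp90 cochaperone p23, had 250, 135 and 158 CPM at 6, 12 and 24 h.

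Of 11 nucleotide exchange factors and Hsp70 cofactors none passed, with a median of -0.12. Among other Hsp70 and Hsp110 genes only 3 reached the floor, of which Hspa4l, the third Hsp110 gene, was lower: 125 CPM at 6 h, 68.0 at 12 h and 65.5 at 24 h. Small heat shock proteins hold unfolded chains without ATP. Of 5 genes listed under that family by name, 2 were higher and 2 lower over all barcodes (40% each, beside 13.5% and 8.95% of all genes). Cryab, αB-crystallin, was at 541, 339 and 325 CPM, and Hspb2, whose gene neighbours Cryab, was at 41.1, 55.0 and 68.1 CPM, so these neighbours differed in direction. Hspb11, listed for its name alone, was at 59.1, 75.8 and 110.6 CPM.

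Chaperones of the endoplasmic reticulum, which fold secreted and membrane proteins such as procollagen, differed between all and deep barcodes. Over all barcodes, of 14, 2 were at least 1.5-fold higher and none lower, 13 had a log2 ratio above 0, beside 53.7% of all genes, and the median was 0.25. The share called is near the background given above. In barcodes with 1000 or more counts, 8 of the 14 were above 0, beside 51.6% of all genes, and the median was 0.058. P4hb, protein disulfide isomerase and a subunit of prolyl 4-hydroxylase, was at 299, 524 and 509 CPM at 6, 12 and 24 h (1.70-fold higher at 24 h than at 6 h, 1.49 to 1.95). Dnajb11, a J-domain partner of BiP, was at 56.5, 101 and 100.2 CPM. Of the 9 cytosolic and mitochondrial genes, 1 was above 0 over all barcodes (Hspa8) and 2 in barcodes with 1000 or more counts (Hspa8 and Hspe1).

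**Figure D5:**
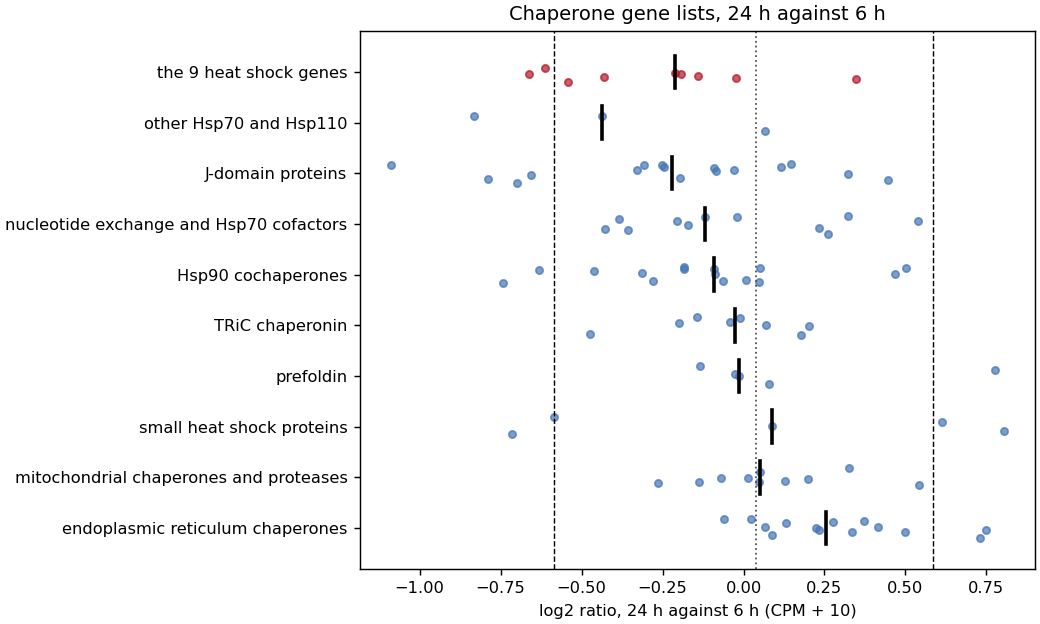
Log2 ratio of CPM plus 10 at 24 h against 6 h (horizontal axis) for each gene of 10 chaperone lists with a mean of 20 CPM or more; points are genes, thick bars are list medians, dashed lines mark 1.5-fold and the dotted line the median of all genes at 0.038. All barcodes are used. Of the 9 heat shock genes (red, median -0.21) 1 lies right of 0, and of the 14 endoplasmic reticulum chaperones (median 0.25) 13 do, against 8 in barcodes with 1000 or more counts.

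The genes whose centred log2 profile over the 3 treated libraries was nearest to the mean of the 9 were Msn, Tab2, Tulp4, Leo1 and Hint1, at Euclidean distances of 0.0048 to 0.023. With 3 points per profile such nearness is common, and 97 of 1813 genes ranked lay within 0.1.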

How the data were processed

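The deposited table of the authors holds raw counts of genes by barcodes. STAR 2.5.3a and the build mm10 are named in the submitters' processing notes, without their role. The sources used here do not give the counter, the annotation, any collapsing of UMIs, the barcode filter or the strand. The 3298 barcodes all had 200 genes or more. For each library the counts of all barcodes were added up and turned into CPM, with exact Poisson 95% intervals. Ratios of CPM have exact conditional binomial intervals, and log2 ratios use CPM plus 10. Ratios of 2 genes in a library have exact binomial intervals, and changes of such ratios normal intervals on the log odds. Named genes are the 9, up to 3 of each list with the largest absolute log2 ratio at 24 h against 6 h at a mean of 20 CPM or more, and the 5 nearest profiles; Hspa1a, Hspa1b, Hsf1, Hsf2, Dnajb1 and Bag3 were added for their role. The genes and lists were chosen with earlier results of these data known. Gli1, Lum, Hsf4, Pfdn6, Hspb3 and Hspb7 were not analysed here. Scrublet in scanpy 1.11.5 called 33, 9, 18 and 14 barcodes doublets, which were kept. Scaling alternatives used edgeR 4.0.16 and DESeq2 1.42.0 factors on the deposited counts. The calls were tested on simulated data with counting error only and planted 2-fold changes, which cannot show how replicate libraries would differ. Positions are from GENCODE M21 (GRCm38), promoter windows from RefSeq (GRCm38.p6). Software was Python 3.11.15, numpy 2.4.6, scipy 1.17.1, pandas 2.3.3, matplotlib 3.10.9 and R 4.3.3.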

Additional observations from a re-analysis of the deposited data

How the results depend on the processing

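With 1 library per time point, all limits below concern counting and scaling, not replication, and no paired analysis was possible because the comparisons come from no test. The number of the 9 genes at least 1.5-fold lower at 12 h against 6 h, 1 as reported, was 2 with barcodes of 1000 or more counts and with barcodes of 500 or more genes (Hsp90aa1 and Hspd1), 3 with totals without mitochondrial and ribosomal protein genes, 4 with TMM and with DESeq2 size factors (Hspe1 and Dnaja1 in addition to these) and 0 at a 2-fold limit. At 24 h against 6 h, 2 as reported, it was 3 with barcodes of 1000 or more counts and of 500 or more genes (Hspa4 in addition), 3 with equal weight per barcode (Hspa9 in addition), 1 with a pseudocount of 50 and 0 at a 2-fold limit. The log2 ratio of the summed genes at 12 h against 6 h, -0.10, was -0.22 with TMM, -0.28 with DESeq2 size factors, -0.19 without mitochondrial and ribosomal protein genes and -0.23 with equal weight per barcode. At 24 h against 12 h, -0.13, it was -0.11 without barcodes 1 base from another, -0.0044 with TMM, 0.0023 with DESeq2 size factors and -0.066 without mitochondrial and ribosomal protein genes. At 24 h against 6 h, -0.23, it was -0.27 with DESeq2 size factors and -0.35 with equal weight. The 6 h median correlation of 0.22 was 0.087 at 5000 or more counts and 0.047 after thinning to 3000, the latter chosen after seeing the data, as was the split by G2 and M genes. Of 351 alternative values of single genes between treated libraries, 24 turned in sign. In 11 of these the interval over all barcodes held 1 (Hsph1 and Hspa4 at 12 h against 6 h, Hspe1 and Hsph1 at 24 h against 6 h). In the other 13 it did not: Hsp90ab1 at 12 h against 6 h (-0.059 with TMM, -0.11 with DESeq2 size factors, -0.030 without mitochondrial and ribosomal protein genes, -0.12 with equal weight), Hsp90aa1 at 24 h against 12 h (0.077, 0.084 and 0.016 with the first 3 of these and 0.0094 in barcodes with under 2 G2 and M counts), Hspd1 at 24 h against 12 h (0.047 with TMM and 0.054 with DESeq2 size factors), Hspa8 at 24 h against 12 h (-0.15) and Hsp90ab1 at 24 h against 6 h (0.10) in barcodes with 2 or more such counts, and Dnaja1 at 24 h against 6 h (0.029 with equal weight). The median of small heat shock proteins at 12 h against 6 h, 0.23, was -0.21 at a mean of 50 CPM, where fewer genes are counted. The cause of the other differences was not tested. The median of the 9 less that of all genes stayed between -0.40 and -0.18 at 12 h against 6 h and between -0.30 and -0.18 at 24 h against 6 h over 12 settings.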
